A study of Mus musculus with 2 samples.

Results

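The genes described here encode subunits of potassium channels, with 1 regulator, Kcnrg. They were taken as every probe whose annotated gene symbol starts with Kcn, apart from Kcne2. The rule found 75 genes with 1 probe each, of 16446 genes named by the platform annotation. RefSeq lists each of the 75 symbols as current. Of these genes, 62 were measured in all 4 channels of the 2 arrays, meaning above the blank spots by 2 SD and not marked bad.

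RNA came from mouse hippocampus and was hybridised to 2-colour oligonucleotide arrays, with the mutant pool in Cy3 and WT in Cy5 each time. The AtrxdE2+TMPyP4 pool came from 5 AtrxdE2 mice (carriers of the AtrxΔE2 allele of Atrx, an X-linked chromatin remodeller gene) injected intraperitoneally with TMPyP4 at 30 mg/kg, 2 times a week from postnatal day 30 to 90. The AtrxdE2 pool came from 5 mice of the same genotype that the labels list without TMPyP4, and WT from 5 wild-type mice; the labels name no vehicle and do not say whether WT was 1 pool on both arrays. TMPyP4 is a cationic porphyrin that binds G-quadruplex DNA, a fold made by runs of guanine. Each mutant pool had 1 array, so no value has a replicate check, no p-value is given, and precision is limited by there being 2 arrays. Dyes were not swapped, so a dye effect and a group effect cannot be told apart in any ratio over WT. In pooled tissue, fewer cells of a type and less RNA per cell cannot be told apart either.

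Potassium channels let potassium leave the cell and so set the resting potential, shape the spike and limit firing. Voltage-gated pores are tetramers whose opening follows the membrane potential, and modifier subunits form no channel of their own but join tetramers and change their gating. Calcium-activated channels couple spikes to the afterhyperpolarisation, inward rectifiers hold the resting potential or answer to G proteins, and tandem-pore channels carry the background leak. Auxiliary subunits bind the pores and set their trafficking and inactivation; in hippocampal pyramidal neurons the best known case is the dendritic A-type current of Kcnd2 with its Kcnip partners.

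Potassium channel genes were detected about as often as other genes, 82.7% in all 4 channels against 82.9% of all named genes. All 11 tandem-pore (Kcnk) genes and all 12 auxiliary subunits (Kcnab, Kcnip, Kcne, Kcnmb) were measured, as were 21 of 23 voltage-gated pores and 6 of 8 modifiers. The inward rectifiers (Kcnj) were the exception, with 6 of 12 measured. Kcnj10, which encodes the main inward rectifier of astrocytes, Kcnj5 and the modifier Kcnv2 were not above background in any channel, and 10 further members were above it in only 1 to 3 channels. Among these was Kcnj6, a G protein-gated channel subunit of neurons, detected in 1 channel. Signals below are spot intensities above the blank spots, before normalization. The median over all probes was higher in the mutant channel of both arrays. It was 79.0 in AtrxdE2+TMPyP4 against 36.0 in WT on that array, and 64.6 in AtrxdE2 against 42.2 in WT on the other. Single genes could go the other way, such as Kcnf1 with 30.9 in AtrxdE2 against 45.3 in WT. A log2 ratio is taken after this imbalance is removed, so it need not match the raw signals. An offset, described below, also draws the ratios of dim probes towards 0.

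**Figure D1:**
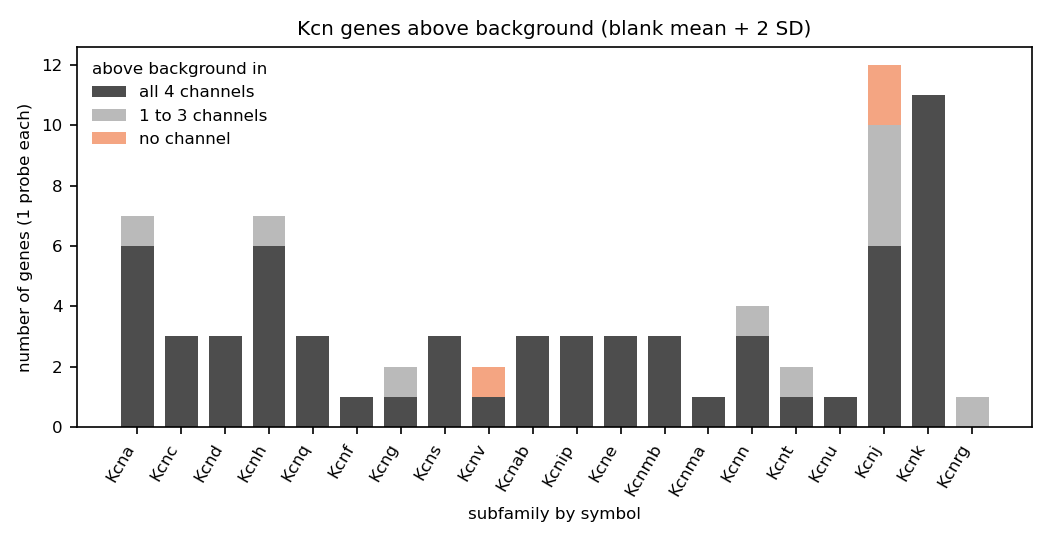
Number of Kcn genes (vertical axis, 1 probe each) by subfamily (horizontal axis), split by the number of channels in which the probe lay above background. Kcnk is detected throughout (11 of 11), whereas 6 of 12 Kcnj genes were measured in all 4 channels.

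Because TMPyP4 binds folded runs of guanine, the promoter windows of 4 members with large ratios or differences are shown with their guanine and cytosine runs. These 4 are a choice and not the most extreme members. Kcnab3 and Kcnv1, which ranked highest in AtrxdE2+TMPyP4 over WT and in the difference between the arrays, are not shown, and neither are Kcnip4 and Kcnq5. The windows hold 250 bases before and 50 after the annotated start, from RefSeq on GRCm38.p6, 5′ to 3′ on the gene's own strand. Capitals mark runs of 3 or more G or C. Kcnip2 is the gene with the lowest AtrxdE2 ratio (chr19:45816014-45816313 on the minus strand), Kcnf1 the next lowest (chr12:17176839-17177138 on the minus strand), Kcnh5 passed 1.5-fold in AtrxdE2+TMPyP4 (chr12:75177283-75177582 on the minus strand), and Kcnk1 had the highest difference between the arrays among Kcnk genes (chr8:125994852-125995151 on the plus strand).
Kcnip2: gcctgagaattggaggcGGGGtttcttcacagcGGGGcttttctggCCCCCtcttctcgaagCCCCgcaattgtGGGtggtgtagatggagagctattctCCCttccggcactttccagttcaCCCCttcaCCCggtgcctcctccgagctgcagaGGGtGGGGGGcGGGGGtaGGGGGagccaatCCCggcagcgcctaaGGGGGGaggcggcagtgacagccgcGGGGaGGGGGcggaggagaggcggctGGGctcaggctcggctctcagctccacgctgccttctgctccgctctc
Kcnf1: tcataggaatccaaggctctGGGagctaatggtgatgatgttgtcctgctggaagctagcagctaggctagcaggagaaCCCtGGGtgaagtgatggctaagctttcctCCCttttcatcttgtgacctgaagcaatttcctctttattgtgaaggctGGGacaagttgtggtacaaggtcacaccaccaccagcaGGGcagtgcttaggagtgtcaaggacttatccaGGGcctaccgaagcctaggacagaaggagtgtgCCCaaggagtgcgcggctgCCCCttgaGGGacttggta
Kcnh5: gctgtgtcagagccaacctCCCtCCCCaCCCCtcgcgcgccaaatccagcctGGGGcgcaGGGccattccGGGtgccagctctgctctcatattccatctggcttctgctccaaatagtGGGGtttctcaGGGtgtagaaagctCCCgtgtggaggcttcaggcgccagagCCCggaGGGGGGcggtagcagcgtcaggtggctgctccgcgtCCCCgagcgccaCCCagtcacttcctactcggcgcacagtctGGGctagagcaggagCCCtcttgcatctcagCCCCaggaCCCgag
Kcnk1: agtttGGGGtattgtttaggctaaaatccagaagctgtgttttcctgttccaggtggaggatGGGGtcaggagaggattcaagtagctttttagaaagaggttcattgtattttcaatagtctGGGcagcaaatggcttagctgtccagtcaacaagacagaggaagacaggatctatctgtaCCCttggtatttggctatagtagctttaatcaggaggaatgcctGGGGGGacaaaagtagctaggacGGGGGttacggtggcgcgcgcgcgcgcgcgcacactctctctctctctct
A motif of 4 runs of GGG with 1 to 7 bases between neighbouring runs was searched on both strands, as GGG and as CCC. Kcnip2 held it on its own strand, with 11 runs of G and a GC content of 67%. Kcnf1, Kcnh5 and Kcnk1 did not hold it. They had 6, 7 and 5 runs of G and 4, 10 and 1 runs of C. Neither Kcnip4 nor Kcnq5, with 2 windows each, held it in any window. RefSeq gave a window for 58 of the 75 members, 79 windows in all, and 26 members held the motif in at least 1 window. That was 28 windows (35.4%), against 18.5% of all 32851 promoter windows. Among measured genes the shares were 29.9% of Kcn windows and 26.2% of all windows. A match describes these letters only.

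The comparison of AtrxdE2+TMPyP4 with WT asks how the treated mutant hippocampus differs from normal. At least 1.5-fold higher were 3 of the 62 measured Kcn genes, Kcnab3, Kcnv1 and Kcnh5, where 0.902% of all 13633 measured genes were. With local background 3 of 62 were, beside 6.29% of all genes, and with median centring 8 of 62, beside 15.3%, so the members' share then lay below that of all genes. None was 1.5-fold lower, where 0.462% of all genes were. The members' median log2 ratio was 0.046 and 35 of 62 lay above 0, against a median of 0.0095 and 52.8% for all genes. For AtrxdE2 over WT, no Kcn gene passed 1.5-fold, where 0.44% of all genes were higher and 0.66% lower. Here the members' median was -0.067 and 23 of 62 lay above 0, against -0.0029 and 49.3% for all genes.

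The difference of the ratios, AtrxdE2+TMPyP4 minus AtrxdE2, asks how treated and untreated mutants differed. Kcnab3, Kcnv1 and Kcnip2 were at least 1.5-fold higher, 3 of 62, where 2.1% of all genes were (5 of 62 beside 8.74% with local background); none was 1.5-fold lower, where 1.14% were. The median was 0.127 and 41 of 62 lay above 0, against 0.015 and 52.7% for all genes. No member reached 2-fold in any of the 3 comparisons. That fold was passed by 0.161% of all genes on the higher side and 0.0293% on the lower side for AtrxdE2+TMPyP4, by 0.022% and 0.00734% for AtrxdE2, and by 0.213% and 0.103% for the difference. These medians were small and moved with the settings: over the 27 brighter members they were 0.11 for AtrxdE2+TMPyP4 over WT, 0.012 for AtrxdE2 over WT and -0.0069 for the difference. Both ratios use WT, so the values of each gene are given side by side below. Some ratios, mostly the larger ones, are set beside the SD or percentile among their neighbours. Neighbours are the 500 genes closest in mean signal over both arrays. The change of the WT channel between the arrays, which is the only repeat of a group, had an SD of 0.26 log2 units over the members.

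**Figure D2:**
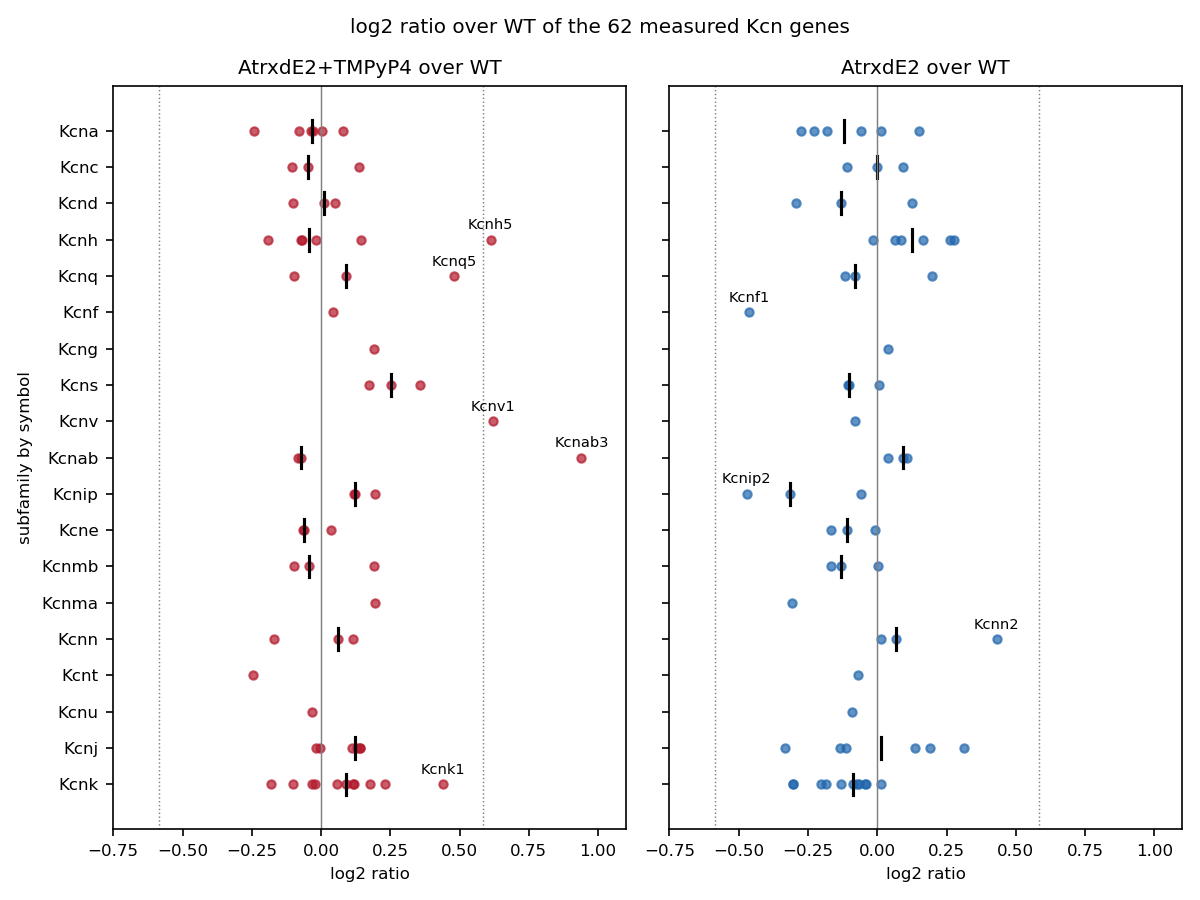
log2 ratio over WT (horizontal axis) of the 62 measured Kcn genes by subfamily (vertical axis), AtrxdE2+TMPyP4 on the left and AtrxdE2 on the right. Points are genes, black bars the medians of subfamilies with 3 or more genes, and dotted lines mark 1.5-fold; Kcnab3, Kcnv1 and Kcnh5 lie past the line on the left and no gene does on the right.

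The voltage-gated pores had a median log2 ratio of -0.03 in AtrxdE2+TMPyP4 and -0.0022 in AtrxdE2, with 9 of 21 above 0 in AtrxdE2+TMPyP4 and 10 in AtrxdE2. Kcnh5 encodes an ether-a-go-go channel. Its signal above blank was 201 in AtrxdE2+TMPyP4 against 47.3 in WT on that array, and 85.6 in AtrxdE2 against 52.4 in WT on the other. It was 1.53-fold higher in AtrxdE2+TMPyP4 (log2 0.61, percentile 99.0 among genes nearest in signal, whose SD was 0.18), had 0.063 in AtrxdE2, and its difference was 0.55. With the local background of each spot the ratio in AtrxdE2+TMPyP4 was 0.21, short of 1.5-fold, and the difference 0.082.

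The other ether-a-go-go genes did not share that value. Kcnh3 had a signal of 285 in AtrxdE2+TMPyP4 against 155 in WT on that array, and 369 in AtrxdE2 against 187 in WT on the other. Its log2 ratios were -0.19 for AtrxdE2+TMPyP4 and 0.28 for AtrxdE2, and its difference of -0.47 was the lowest of all measured members (percentile 4.6 among genes nearest in signal, SD 0.31). With median centring its ratio in AtrxdE2+TMPyP4 was 0.13. Kcnh6 had -0.069 for AtrxdE2+TMPyP4 and 0.26 for AtrxdE2, and Kcnh2, which encodes the channel of the cardiac rapid delayed rectifier, had 0.14 for AtrxdE2+TMPyP4 and 0.17 for AtrxdE2. In AtrxdE2, 5 of 6 measured Kcnh genes lay above 0 with a median of 0.13, and in the difference 5 of 6 lay below 0; the sign of both medians held under every alternative, with 4 of 6 below 0 in the difference under local background and 3 of 6 under median centring.

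Kcnq5, a subunit of the muscarine-sensitive M current, had a signal of 364 in AtrxdE2+TMPyP4 against 108 in WT on that array, and 283 in AtrxdE2 against 153 in WT on the other. Its log2 ratios were 0.48 for AtrxdE2+TMPyP4 and 0.20 for AtrxdE2, with AtrxdE2+TMPyP4 at percentile 98.6 of genes nearest in signal. Between the arrays (AtrxdE2+TMPyP4 array minus AtrxdE2 array) the Kcnq5 mutant channels differed by 0.024 and its WT channels by -0.24. Kcnq3, its usual partner in that current, had -0.098 for AtrxdE2+TMPyP4 and -0.12 for AtrxdE2. Kcnd2, the pore of the dendritic A-type current, had a signal of 1518 in AtrxdE2+TMPyP4 against 652 in WT on that array, and 769 in AtrxdE2 against 611 in WT on the other. Its ratios were 0.012 for AtrxdE2+TMPyP4 and -0.29 for AtrxdE2, within an SD of 0.37 and just past one of 0.25 among neighbours. The AtrxdE2+TMPyP4 ratio was 0.37 with local background and 0.56 with median centring. Its difference was 0.31, and with those settings it passed 1.5-fold at 0.63 and 0.60. Kcnd3 had 0.051 for AtrxdE2+TMPyP4 and 0.12 for AtrxdE2, and the dim Kcnd1 -0.10 for AtrxdE2+TMPyP4 and -0.13 for AtrxdE2.

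Among Shaker-type (Kcna) genes, which encode axonal low-threshold channels, Kcna1 had a signal of 3004 in AtrxdE2+TMPyP4 against 1530.2 in WT on that array, and 2459 in AtrxdE2 against 1579 in WT on the other. Its log2 ratios were -0.24 for AtrxdE2+TMPyP4 and 0.012 for AtrxdE2, the AtrxdE2+TMPyP4 value at percentile 10.4 of its neighbours. With median centring its ratio in AtrxdE2+TMPyP4 was 0.35, and its difference turned to 0.082, against -0.25 by loess. Kcna4, an inactivating axonal subunit, had -0.030 for AtrxdE2+TMPyP4 and -0.28 for AtrxdE2 (percentile 5.4), Kcna2 -0.036 for AtrxdE2+TMPyP4 and -0.23 for AtrxdE2, and Kcna3 0.078 for AtrxdE2+TMPyP4 and 0.15 for AtrxdE2. The Shaw-type genes Kcnc1, Kcnc2 and Kcnc4, whose channels serve fast spiking, lay between -0.11 and 0.14 in both ratios. Kcna6, Kcna7, Kcnh1, Kcnh8 and Kcnq1 lay between -0.078 and 0.090 for AtrxdE2+TMPyP4 and between -0.18 and 0.086 for AtrxdE2.

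All 6 measured modifiers lay above 0 in AtrxdE2+TMPyP4, with a median log2 ratio of 0.22, and 2 of 6 in AtrxdE2, with a median of -0.091. Kcnv1, a silent subunit that joins the tetramers of other voltage-gated pores, had a signal of 1541 in AtrxdE2+TMPyP4 against 422 in WT on that array, and 626 in AtrxdE2 against 424 in WT on the other. The WT signals of the arrays were close before normalization, and the AtrxdE2+TMPyP4 signal stood above the AtrxdE2 one. It was 1.54-fold higher in AtrxdE2+TMPyP4 (log2 0.62, percentile 99.4, neighbour SD 0.23), had -0.079 in AtrxdE2, and a difference of 0.70. With local background the ratio was 0.54, short of 1.5-fold, while the difference stayed past it at 0.66.

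Kcns2, another silent subunit, had a signal of 232 in AtrxdE2+TMPyP4 against 75.5 in WT on that array, and 84.2 in AtrxdE2 against 63.6 in WT on the other. Its ratios were 0.36 for AtrxdE2+TMPyP4 and -0.10 for AtrxdE2, with a difference of 0.46; Kcns1 had 0.25 for AtrxdE2+TMPyP4 and -0.10 for AtrxdE2. Kcns3 had 0.17 for AtrxdE2+TMPyP4 and 0.0063 for AtrxdE2, and Kcng4 0.19 for AtrxdE2+TMPyP4 and 0.039 for AtrxdE2. In Kcnf1 the AtrxdE2 pool was the low one: its signal was 119 in AtrxdE2+TMPyP4 against 53.6 in WT on that array, and 30.9 in AtrxdE2 against 45.3 in WT on the other. Its ratios were 0.041 for AtrxdE2+TMPyP4 and -0.46 for AtrxdE2, the AtrxdE2 value at percentile 0.4 of its neighbours (SD 0.16). With plain subtraction of the blank level it was -1.17, and in the authors' deposited table -1.2, both past 2-fold lower. For the difference, all 6 modifiers lay above 0 with a median of 0.41, which was positive under every alternative, with 5 of 6 above 0 under local background. In AtrxdE2+TMPyP4 over WT, 5 of 6 lay above 0 under local background, where the median was 0.041, and in the authors' deposited table.

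Among auxiliary subunits Kcnab3, a beta subunit of Kcna channels, had the highest ratio in AtrxdE2+TMPyP4 and the highest difference of all measured members. Its signal above blank was 626 in AtrxdE2+TMPyP4 against 127 in WT on that array, and 228 in AtrxdE2 against 134 in WT on the other. The WT signals of the arrays were close before normalization, and the AtrxdE2+TMPyP4 signal stood above the AtrxdE2 one. It was 1.92-fold higher in AtrxdE2+TMPyP4 (log2 0.94, percentile 99.8, neighbour SD 0.22), had 0.11 in AtrxdE2, and a difference of 0.83 (percentile 99.2). Every alternative kept its ratio and its difference past 1.5-fold, from 0.67 with local background to 1.32 with median centring for the ratio; its AtrxdE2 ratio was -0.16 with local background. The other beta subunits did not share it: Kcnab1 had -0.084 for AtrxdE2+TMPyP4 and 0.039 for AtrxdE2, and Kcnab2 -0.072 for AtrxdE2+TMPyP4 and 0.094 for AtrxdE2.

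The 3 measured Kcnip genes, which encode calcium-binding partners of Kcnd channels, lay below 0 in AtrxdE2 under every alternative, with a median log2 ratio of -0.31, and above 0 in AtrxdE2+TMPyP4, with 0.12 (2 of 3 under local background). Kcnip2 had a signal of 454 in AtrxdE2+TMPyP4 against 186 in WT on that array, and 339 in AtrxdE2 against 318 in WT on the other. Its ratios were 0.12 for AtrxdE2+TMPyP4 and -0.47 for AtrxdE2, the AtrxdE2 value being the lowest of all measured members (percentile 3.4, neighbour SD 0.24), and its difference of 0.59 was just past 1.5-fold. The WT channel of Kcnip2 itself differed by -0.49 log2 units between the arrays (AtrxdE2+TMPyP4 array minus AtrxdE2 array), and the mutant channels set against each other differed by 0.078, short of 1.5-fold. With local background the difference was 1.74.

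For Kcnip4 the WT channels also differed, in the other direction. Its signal was 454 in AtrxdE2+TMPyP4 against 175 in WT on that array, and 127 in AtrxdE2 against 115 in WT on the other. Its ratios were 0.19 for AtrxdE2+TMPyP4 and -0.31 for AtrxdE2, with a difference of 0.51, but the mutant channels differed by 1.12 and the WT channels by 0.63. Kcnip1 had 0.12 for AtrxdE2+TMPyP4 (-0.11 with local background) and -0.058 for AtrxdE2. Kcnmb4, the neuronal auxiliary subunit of the large-conductance calcium-activated channel, had a signal of 8271 in AtrxdE2+TMPyP4 against 3760.3 in WT on that array, and 4749 in AtrxdE2 against 3130.2 in WT on the other, and ratios of -0.099 for AtrxdE2+TMPyP4 and 0.0025 for AtrxdE2. Kcnmb2, whose subunit inactivates large-conductance channels, had 0.19 for AtrxdE2+TMPyP4 and -0.13 for AtrxdE2. The measured Kcne genes were dim, with signals between 8.2 and 35.4 in AtrxdE2+TMPyP4 and between 8.41 and 20.9 in AtrxdE2, and their ratios lay between -0.17 and 0.037.

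Calcium- and sodium-activated pores held the highest AtrxdE2 ratio and one of the low ones. Kcnn2 encodes a small-conductance channel of the afterhyperpolarisation and had a signal of 843 in AtrxdE2+TMPyP4 against 341 in WT on that array, and 747 in AtrxdE2 against 341 in WT on the other before normalization, nearly equal for WT. Its ratios were 0.11 for AtrxdE2+TMPyP4 and 0.43 for AtrxdE2, the AtrxdE2 value at percentile 97.8 of its neighbours (SD 0.23). It passed 1.5-fold in both ratios with median centring, at 0.60 for AtrxdE2+TMPyP4 and 0.68 for AtrxdE2. The Kcnn genes as a group had 2 of 3 above 0 in AtrxdE2+TMPyP4, with a median of 0.061 that turned to -0.044 with local background (0 of 3) and was 0.28 with median centring (3 of 3). They had 3 of 3 above 0 in AtrxdE2 (2 of 3 in the authors' deposited table), and 0 of 3 above 0 in the difference (1 of 3 with median centring or mutant channels alone).

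Kcnma1, the large-conductance pore that shortens the spike, had a signal of 675 in AtrxdE2+TMPyP4 against 257 in WT on that array, and 399.6 in AtrxdE2 against 327 in WT on the other. Its ratios were 0.20 for AtrxdE2+TMPyP4 and -0.31 for AtrxdE2, on opposite sides of 0, with a difference of 0.50 at percentile 93.0. With local background the ratio in AtrxdE2+TMPyP4 was -0.034 and the difference 0.13. With median centring they were 0.64 and 0.72, both past 1.5-fold. Kcnt2, a sodium-activated channel, had the lowest ratio of all measured members in AtrxdE2+TMPyP4, -0.24, and -0.068 in AtrxdE2. With median centring its ratio in AtrxdE2+TMPyP4 was 0.19. Kcnn1, Kcnn3, Kcnu1 and the auxiliary Kcnmb1 lay between -0.17 and 0.061 for AtrxdE2+TMPyP4 and between -0.17 and 0.068 for AtrxdE2.

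Of the 6 measured inward rectifiers, 4 lay above 0 in AtrxdE2+TMPyP4 and 3 in AtrxdE2. Kcnj9, a G protein-gated subunit of neurons, had a signal of 856 in AtrxdE2+TMPyP4 against 339 in WT on that array, and 408 in AtrxdE2 against 340.3 in WT on the other. Its ratios were 0.14 for AtrxdE2+TMPyP4 and -0.33 for AtrxdE2, the AtrxdE2 value at percentile 8.4, and Kcnj3, its G protein-gated partner, had 0.11 for AtrxdE2+TMPyP4 and -0.11 for AtrxdE2. With median centring Kcnj9 had 0.62 in AtrxdE2+TMPyP4 and a difference of 0.73, both past 1.5-fold. Kcnj16, which pairs with Kcnj10 in glia, had a signal of 514 in AtrxdE2+TMPyP4 against 208 in WT on that array, and 488 in AtrxdE2 against 242 in WT on the other. Its ratios were 0.13 for AtrxdE2+TMPyP4 and 0.31 for AtrxdE2, with AtrxdE2 at percentile 94.6. Kcnj8, the pore of the vascular ATP-sensitive channel, had -0.019 for AtrxdE2+TMPyP4 and 0.19 for AtrxdE2, Kcnj12 0.14 for AtrxdE2+TMPyP4 and 0.14 for AtrxdE2, and Kcnj14 -0.0032 for AtrxdE2+TMPyP4 and -0.14 for AtrxdE2.

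Tandem-pore genes lay mostly below 0 in AtrxdE2, 10 of 11 with a median of -0.086 (7 of 11 with local background and 8 of 11 with median centring), and 7 of 11 lay above 0 in AtrxdE2+TMPyP4 with a median of 0.088 (-0.035 with median centring). In the difference 10 of 11 lay above 0 with a median of 0.20, and 6 of 11 by the mutant channels alone. Kcnk1, a weakly rectifying leak channel, had a signal of 2559.9 in AtrxdE2+TMPyP4 against 802 in WT on that array, and 1256 in AtrxdE2 against 855 in WT on the other. Its ratios were 0.44 for AtrxdE2+TMPyP4 and -0.086 for AtrxdE2, with AtrxdE2+TMPyP4 at percentile 97.2 of its neighbours (SD 0.23), and its difference was 0.53. It passed 1.5-fold in AtrxdE2+TMPyP4 with local background (0.67) and with median centring (1.01). Kcnk2, a channel opened by stretch and lipids, had 0.12 for AtrxdE2+TMPyP4 and -0.30 for AtrxdE2, and the acid-sensitive Kcnk5 -0.10 for AtrxdE2+TMPyP4 and -0.30 for AtrxdE2. Kcnk13, whose channel sets the resting potential of microglia, had -0.18 for AtrxdE2+TMPyP4 and -0.20 for AtrxdE2. Kcnk3, Kcnk4, Kcnk6, Kcnk7, Kcnk12 and Kcnk18 lay between -0.032 and 0.18 for AtrxdE2+TMPyP4 and between -0.19 and 0.013 for AtrxdE2.

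Kcnk9, another acid-sensitive leak channel, had a weak WT signal on 1 array. Its signals were 25.0 in AtrxdE2+TMPyP4 against 3.22 in WT on that array, and 30.2 in AtrxdE2 against 21.4 in WT on the other. Its ratio in AtrxdE2+TMPyP4 was 0.23, against 1.79 in the authors' deposited table, which adds no offset, and -0.012 with median centring. In AtrxdE2 it was -0.041. In all, 13 of the 62 measured members had a signal under 20 in at least 1 channel.

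**Figure D3:**
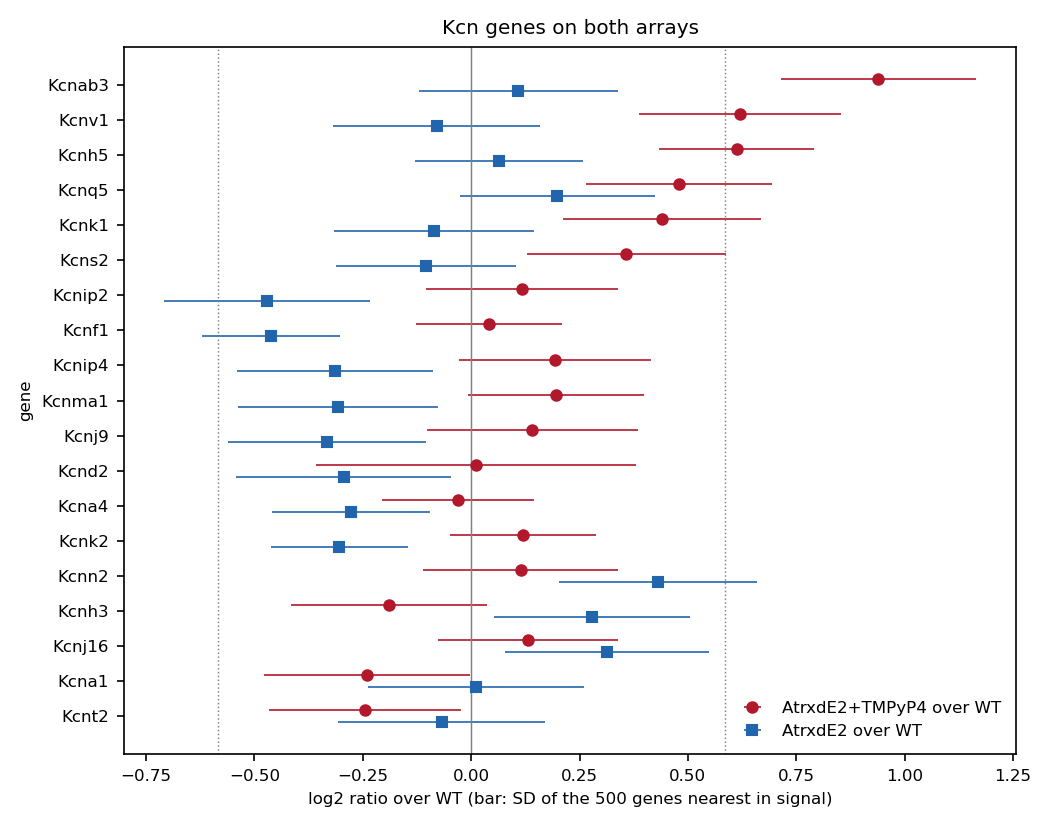
log2 ratio over WT (horizontal axis) of 19 named Kcn genes (vertical axis), AtrxdE2+TMPyP4 as circles and AtrxdE2 as squares. Bars are the SD of the same ratio over the 500 genes nearest in mean signal of both arrays, not a replicate error. Dotted lines mark 1.5-fold. Kcnab3 stands apart in AtrxdE2+TMPyP4 at 0.94, and Kcnip2 and Kcnf1 are lowest in AtrxdE2 at -0.47 and -0.46.

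The WT channels allow the size of array-to-array differences to be read. After quantile normalization, 2 Kcn genes differed by at least 1.5-fold between the WT channels, Kcnip4 (higher on the AtrxdE2+TMPyP4 array by 0.63) and Kcna7 (at -0.68), where 5.49% of all measured genes did. For Kcnab3, Kcnv1 and Kcnh5 the WT channels differed by 0.089, 0.20 and 0.038, and the mutant channels by 0.91, 0.88 and 0.56. The mutant channels alone put 7 Kcn genes past 1.5-fold higher (Kcnab3, Kcnf1, Kcnip4, Kcnj9, Kcnk1, Kcns2 and Kcnv1) and 2 past 1.5-fold lower (Kcna7 and Kcnab2), where 5.48% and 5.78% of all genes were. Kcna7 had -0.61 by its mutant channels but 0.10 by the difference of ratios, and Kcnt2 had 0.38 against -0.18, with WT channels that differed by 0.57.

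**Figure D4:**
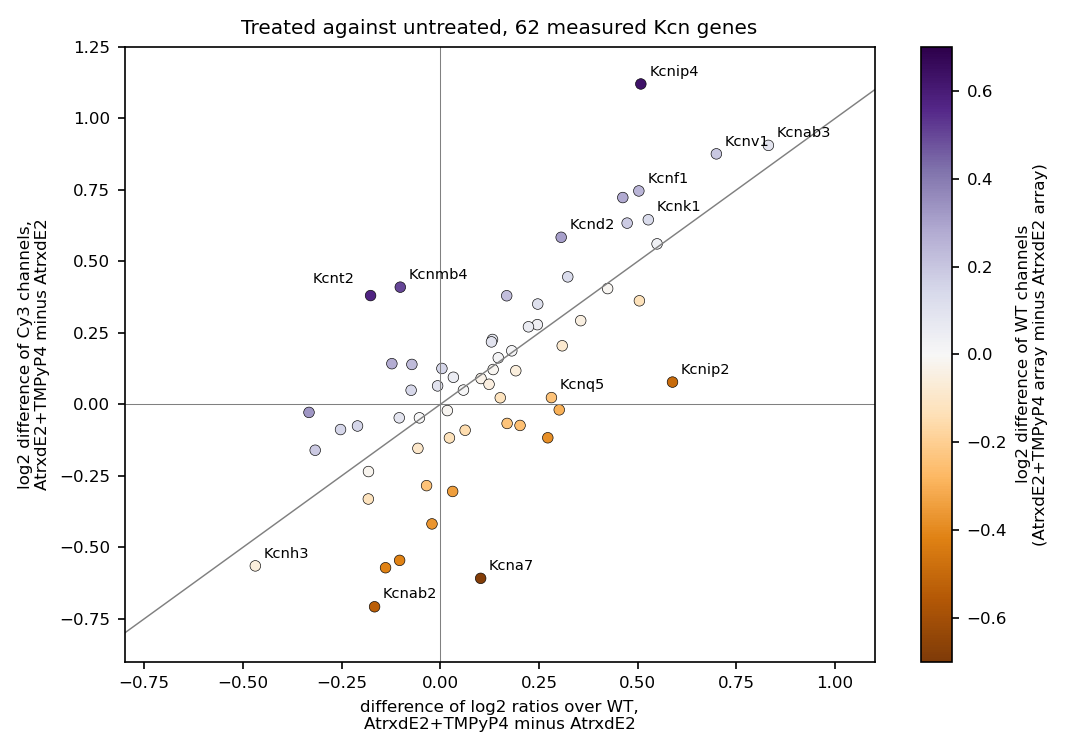
Each point is 1 of 62 measured Kcn genes: the difference of log2 ratios over WT (horizontal axis) against the log2 difference of the mutant (Cy3) channels (vertical axis), AtrxdE2+TMPyP4 minus AtrxdE2, coloured by the log2 difference of the WT channels. The line marks equal values; Kcnab3 and Kcnv1 lie close to it at the upper right, and Kcnip4, Kcnip2, Kcna7 and Kcnt2 lie off it with WT differences of 0.63, -0.49, -0.68 and 0.57.

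Of 29 listed genes whose products bind or anchor these channels, 21 were measured, with median log2 ratios of 0.098 in AtrxdE2+TMPyP4 and -0.037 in AtrxdE2 and none past 1.5-fold in either. In the difference 1 passed it, Ank2, which encodes an ankyrin of the membrane skeleton, at -0.67, where 1.14% of all genes were lower. The Ank2 ratios were -0.20 for AtrxdE2+TMPyP4 and 0.47 for AtrxdE2. Ank2 was dim, with signals of 14.9 in AtrxdE2+TMPyP4 against 13.4 in WT, and 56.3 in AtrxdE2 against 13.4 in WT. The counts of partners depended on the setting. In the authors' deposited table, 2 partners were at least 1.5-fold higher (Lrrc38 and Lrrc52) and 1 lower (Ank2, at -1.02) in AtrxdE2+TMPyP4, and 2 higher (Ank2, at 1.42, and Lrrc52) and 1 lower (Abcc8) in AtrxdE2. Of all genes there, 5.22% were higher and 3.06% lower in AtrxdE2+TMPyP4, and 4.11% higher and 5.16% lower in AtrxdE2. With local background 3 of 21 were higher in AtrxdE2+TMPyP4, beside 6.29% of all genes, and with median centring 5, beside 15.3%. Dpp10 and Dpp6, partners of Kcnd channels, had 0.41 and 0.11 in AtrxdE2+TMPyP4, and 0.23 and -0.049 in AtrxdE2. Of 18 listed pumps and cotransporters that set the potassium gradient 13 were measured, with medians of -0.016 for AtrxdE2+TMPyP4 and -0.095 for AtrxdE2. Atp1b1, a subunit of the sodium-potassium pump, was past 1.5-fold lower in AtrxdE2+TMPyP4 (-0.65) and had -0.43 in AtrxdE2. In the authors' deposited table it had -0.56 in AtrxdE2+TMPyP4, short of 1.5-fold, and it was also short of it there with local background, plain subtraction and median centring. With local background it was instead past 1.5-fold lower in AtrxdE2, where 1.47% of all genes were. Its signals were 23432 in AtrxdE2+TMPyP4 against 15308 in WT, and 14252 in AtrxdE2 against 13133 in WT.

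Markers of cell types were set beside these values. All 7 listed dentate granule neuron genes and all 4 pyramidal neuron genes with a probe were measured. Their medians were 0.032 and -0.013 in AtrxdE2+TMPyP4 and -0.033 and 0.034 in AtrxdE2. The dentate genes C1ql2, Dsp, Lct, Prox1 and Tdo2 were dim, with WT signals between 3.35 and 27.0, and the offset draws such ratios towards 0. Trpc6 was past 1.5-fold higher at 0.65 in AtrxdE2+TMPyP4 and 0.85 in AtrxdE2, where 0.902% and 0.44% of all genes were. Tdo2 was lowest at -0.029 and -0.11. Choroid plexus genes had a median of 1.59 in AtrxdE2+TMPyP4 and 0.025 in AtrxdE2. Of 11 with a probe 8 were measured, as Aqp1, Cldn2 and F5 were not above background in every channel. Apart from Ttr, the WT signals of these 8 lay between 1.98 and 38.1. Kcne2, left out of the members, is among the 8, at 1.38 in AtrxdE2+TMPyP4 and -0.15 in AtrxdE2. The summed signal of the choroid plexus genes was 0.415% of the AtrxdE2+TMPyP4 channel against 0.00448% of WT, and 0.00482% of AtrxdE2 against 0.00214% of WT. Ttr, the transthyretin gene, was highest at 6.59 in AtrxdE2+TMPyP4 and 1.59 in AtrxdE2. Ttr made up most of each sum on the AtrxdE2+TMPyP4 array. Without it, left out after its values were seen, the shares were 0.0124% of AtrxdE2+TMPyP4 against 0.00121% of WT, and 0.00178% of AtrxdE2 against 0.00157% of WT. Interneuron genes had medians of -0.0084 in AtrxdE2+TMPyP4 and -0.12 in AtrxdE2, with Pvalb highest at 0.87 in AtrxdE2+TMPyP4 and -0.014 in AtrxdE2. The 9 interneuron genes held 0.097% of summed signal in AtrxdE2+TMPyP4 against 0.0869% in WT, and 0.112% in AtrxdE2 against 0.12% in WT. The 10 measured oligodendrocyte genes had medians of -0.50 in AtrxdE2+TMPyP4 and -0.52 in AtrxdE2, and held 0.145% of AtrxdE2+TMPyP4 signal against 0.216% of WT, and 0.122% of AtrxdE2 signal against 0.194% of WT. With median centring their medians were 0.00037 in AtrxdE2+TMPyP4 and -0.27 in AtrxdE2. The 7 oligodendrocyte precursor genes had medians of -0.18 in AtrxdE2+TMPyP4, 0.012 in AtrxdE2 and -0.36 in the difference, with 6 of 7 below 0 in the difference. The 8 pericyte and smooth muscle genes had medians of 0.022 in AtrxdE2+TMPyP4 (4 above 0) and 0.19 in AtrxdE2 (7 above 0). The vascular Kcnj8, at -0.019 in AtrxdE2+TMPyP4 and 0.19 in AtrxdE2, is itself among these 8. Its values are thus part of those medians and no separate comparison. The 6 measured endothelium genes had 0.040 in AtrxdE2+TMPyP4 and 0.081 in AtrxdE2. Astrocyte genes (10) had medians of 0.11 in AtrxdE2+TMPyP4 and -0.041 in AtrxdE2, microglia genes (9) -0.13 in AtrxdE2+TMPyP4 and -0.054 in AtrxdE2, and thalamus and habenula genes (7 of 8) 0.16 in AtrxdE2+TMPyP4 and -0.061 in AtrxdE2. The 10 meninges and fibroblast genes had medians of 0.70 in AtrxdE2+TMPyP4 and 0.41 in AtrxdE2, and the 8 striatum genes -0.51 in AtrxdE2+TMPyP4 and -0.12 in AtrxdE2. Their part in the Kcn ratios was not tested. The Atrx probe had log2 ratios of -0.36 in AtrxdE2+TMPyP4 and -0.68 in AtrxdE2; where it lies relative to the deletion was not analysed here. Its signals were 71.5 in AtrxdE2+TMPyP4 and 54.6 in WT, and 19.1 in AtrxdE2 and 47.4 in WT.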

How the data were processed

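Per the file headers, the deposited scanner files give a median spot intensity for Cy5 and Cy3, with local background and quality marks; for scanning software, none is named in the sources used here. The deposited value table of the authors holds normalized log2 ratios of mutant over WT, per the labels. Set against the scanner values, each entry equalled the log2 ratio above the blank spots less a fixed amount (1.17 for AtrxdE2+TMPyP4, 0.65 for AtrxdE2), within 0.01 for 99.99% and 99.995% of probes, which settles scale, centring and direction.

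From the intensities, background was corrected with normexp in limma 3.58.1 (R 4.3.3; offset 50) on the trimmed mean of the blank spots, and each array was normalized by loess with controls at weight 0. Blank spots replaced local background after the data were seen. A probe was measured when above the blank mean by 2 SD in all channels; 13633 named genes were. The offset draws the ratios of dim probes towards 0. With 1 array per mutant group no test was run; genes past 1.5-fold and 2-fold were counted beside all genes. The WT channels and mutant channels were compared after quantile normalization. Scripts were tested on simulated data; tables were handled with Python 3.11.15 and pandas 2.3.3.

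Members and lists were chosen with earlier results of these data known. Named were the 8 highest and 8 lowest measured members of each comparison, all past 1.5-fold, and a list of well-known channels, 41 genes; others are named for a group or a setting after their values were seen. Alternatives were local background, plain subtraction, an offset of 16, median centring, the authors' table, other filters, the brightest probe and the mutant channels alone. Some listed channels are not reported here, and 1 Kcn gene annotated under an older symbol, Kcnk10, fell outside the rule.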

Additional observations from a re-analysis of the deposited data

How the results depend on the processing

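Of 918 recomputed log2 values of named genes, 67 moved by more than the WT spread, and 60 of any size had another sign than the main value. None that had passed 1.5-fold changed sign, but only 3 ratios in AtrxdE2+TMPyP4 and 3 differences had passed it. The 918 include 117 values with the brightest probe, 117 without a filter on signal and 60 over brighter probes. Those could not move, because each member has 1 probe and a filter alters no value, so they are no check. Median centring placed the median of all genes at 0.18 in AtrxdE2+TMPyP4 and 0.066 in AtrxdE2. Counts out of 62 follow, each with the share of all genes past the same fold in parentheses. Median centring gave 8 members at least 1.5-fold higher (15.3%) and 3 at least 2-fold higher (1.05%) for AtrxdE2+TMPyP4 over WT (median 0.16), 1 at least 1.5-fold higher (2.74%) for AtrxdE2 over WT, and 11 (7.53%) and 1 (0.748%) higher at those folds for the difference (median 0.089). Relative to all genes these medians were -0.022 in AtrxdE2+TMPyP4, -0.11 in AtrxdE2 and 0.029 for the difference. Local background put Kcnab3, Kcnip2 and Kcnk1 past 1.5-fold (6.29%) in place of Kcnab3, Kcnv1 and Kcnh5, with 1 at least 2-fold higher (2.43%) for AtrxdE2+TMPyP4 over WT (median -0.011), 1 at least 1.5-fold lower (1.47%) for AtrxdE2 over WT, and 5 (8.74%) and 2 (3.34%) higher at 1.5-fold and 2-fold for the difference (median 0.030). Under local background the members' shares thus lay near or below those of all genes, and the excess over 0.902% was not kept. Plain subtraction gave 6 (4.61%) and 2 (1.28%) higher and 2 at least 1.5-fold lower (3.21%) for AtrxdE2+TMPyP4 over WT, 4 (5.18%) and 3 (0.902%) lower for AtrxdE2 over WT (median -0.16), and 16 (9.93%) and 2 (2.99%) higher and 1 lower (6.9%) for the difference (median 0.29). The authors' deposited table gave 6 (5.22%) and 2 (1.53%) higher and 1 lower (3.06%) for AtrxdE2+TMPyP4 over WT, 5 (5.16%) and 2 (0.792%) lower for AtrxdE2 over WT (median -0.185), and 17 (10.2%) and 3 (3.01%) higher and 1 lower (6.65%) for the difference (median 0.275). An offset of 16 gave 1 at least 2-fold higher (0.293%), 1 at least 1.5-fold lower (1.22%), and 7 at least 1.5-fold higher (4%) in those 3 comparisons (median of the difference 0.21). The mutant channels alone gave 7 (5.48%) and 1 (0.917%) higher and 2 lower (5.78%) for the difference (median 0.084). Without a filter on signal the median difference was 0.089, and over brighter members the medians were 0.11, 0.012 and -0.0069. The cause of these moves was not tested, except that plain subtraction and the authors' table add no offset. No paired analysis was possible because each mutant group has 1 array. Signal over background limits the 13 dimmest members most.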

Other observations

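Some members were above background in 1 channel of an array only, which gives a bound on the ratio. The brighter channel was set against the lowest normalized value of any probe above background in the dimmer channel. Where the member's own value there was higher, that value was used instead. Kcnj15, an inward rectifier, was at least 1.13-fold higher in AtrxdE2 than in WT, with signals of 11.8 in AtrxdE2 and -1.33 in WT. Kcna5, a Shaker-type pore, was at least 1.09-fold lower in AtrxdE2+TMPyP4 than in WT after normalization. Its signals before normalization were 6.14 in AtrxdE2+TMPyP4 and 5.80 in WT, so the direction rests on the normalization. Kcnn4, an intermediate-conductance calcium-activated pore, was at least 1.06-fold higher in AtrxdE2+TMPyP4 than in WT, and the inward rectifier Kcnj2 at least 1.05-fold. For Kcnj2 that bound is the ratio of its own normalized values. All other bounds among the members were 1.02-fold or less. Kcnh7, an ether-a-go-go gene, had a signal of 19.1 in AtrxdE2+TMPyP4 and 4.33 in WT, against 4.05 in AtrxdE2 and 4.11 in WT, and was above background in 3 of the 4 channels.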
